A study of Mus musculus with 18 samples.

Results

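The sites described here are the mRNA m5C sites found only in OGD/R 3 h, which are cytosines in an exon of a protein-coding transcript that were called as methylated in all 3 OGD/R 3 h libraries and in none of the 3 control and 3 OGD/R 1.5 h libraries. There were 1858 such sites among the 18059 distinct mRNA sites of the 9 libraries, or 10.3%. The calls themselves chose these sites, so their number and their absence from the other libraries are a description and were not tested. For comparison, 1020 mRNA sites (5.65%) were found in all 3 control libraries only and 631 (3.49%) in all 3 OGD/R 1.5 h libraries only.

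According to the labels, neurons were taken from the cortex of C57BL/6 fetal mice at day 18 and cultured. Control neurons were left untreated, and the others were deprived of oxygen and glucose for 1.5 h or 3 h and returned to normal medium for 24 h, which is the OGD/R treatment. The gas shares that the labels give for the deprivation add up to more than the whole, so the oxygen level is not given here. The RNA was depleted of rRNA, treated with bisulfite and sequenced with a strand-specific kit, with 3 libraries in each group. The supplement of the study calls the replicates sequencing pool replicates, and no source used here says that they came from separate cultures. Each group of 3 libraries was treated as 1 sample for this reason, and no p-value was computed.

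5-Methylcytosine (m5C) is a methyl mark on cytosine in RNA. In mRNA it is laid down mainly by NSUN2, and by NSUN6 at a smaller number of sites, and it is read by ALYREF, which takes part in nuclear export of mRNA, and by YBX1, which binds and stabilises mRNA. Bisulfite turns unmethylated cytosine into uracil and leaves m5C as cytosine, so a cytosine that is read as C is taken as methylated, and a cytosine that the treatment fails to convert reads in the same way.

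The OGD/R 3 h libraries held 7772, 7266 and 7376 sites, the control libraries 6021, 6254 and 5907 and the OGD/R 1.5 h libraries 5423, 5745 and 5684. In the same order of OGD/R 3 h replicates, 5269, 4733 and 4739 were mRNA sites, of which the OGD/R 3 h-only sites made up 35.3%, 39.3% and 39.2%. The files list each site with a score that grows with its coverage and its methylation level together, so it gives neither of them, and no read depth was known for any library. A cytosine that is not listed in a library may have been unmethylated there, methylated below the authors' limit or too little covered, and these cannot be told apart. Of the sites called in all 3 libraries of a group, the share found in that group only was 72.5% (1858 of 2563) in OGD/R 3 h, 56.4% (1020 of 1810) in control and 49.6% (631 of 1271) in OGD/R 1.5 h.

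The sequences of the following stretches are shown because OGD/R 3 h-only sites took up most or all of their cytosines. They are from the mm10 genome, written 5′ to 3′ on the transcript strand with at most 30 bases of each stretch. Capitals mark the OGD/R 3 h-only sites, and a lower case c is a cytosine that is not among them.
Hbb-bs, chr7:103827866-103827895, minus strand: CaaCCCCagaaaCagaCatCatggtgCaCC
S100a8, chr3:90669531-90669554, plus strand: CtttCgtgaCaatgCCgtCtgaaC
H1f3, chr13:23555035-23555061, plus strand: CaaCCttCtCtgaCtgtttgtgCttaC
H1f2, chr13:23738845-23738874, plus strand: CatCatgtCtgaggCtgCtCCtgctgCCCC
Rhob, chr12:8499959-8499983, minus strand: CgtCtgCgCCCCtgtaCCCtaggtC
Actb, chr5:142906697-142906715, minus strand: CgCgtCCaCCCgCgagCaC
Calr, chr8:84846836-84846862, minus strand: CCgCagagCCgCtgcCtgaagatCgtC
Cyba, chr8:122432871-122432899, minus strand: CCgggCtgCtgcgtgtgCgCagggtCctC
Rpl8, chr15:76904895-76904924, plus strand: CCtggggaCaggggCaagCtggCcCgagCC
ND2, chrM:3920-3943, plus strand: CCtatcaCcCttgCCatCatCtaC

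In Hbb-bs, S100a8, H1f3, Rhob and Actb, every cytosine of the printed stretch was an OGD/R 3 h-only site. The stretches of Hbb-bs, S100a8 and H1f2 contain the start codon of the gene, those of H1f3, Actb, Calr, Cyba and ND2 lie in the start codon region, that of Rhob lies in the 5′ UTR and that of Rpl8 in the coding sequence. No control site lay inside any of these stretches except in Cyba, where 2 did.

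The 1858 sites lay in 646 genes, which were 24.9% of the 2598 genes with an mRNA site in any library. Control-only sites were spread over 601 genes (23.1%) and OGD/R 1.5 h-only sites over 439 genes (16.9%). A gene with OGD/R 3 h-only sites held 2.88 of them on average and 2 at the median. In 264 of these genes (40.9%) there was 1 site, while 98 genes with at least 5 sites held 824 sites (44.3%). The 10 genes with most sites held 226 (12.2%). Sites of 1 gene share its transcripts and reads, and the number of sites in a gene depends on transcript length and coverage, so the order of genes is not an order of methylation. Genes with more sites also have more chances to hold an OGD/R 3 h-only site. In the counts per library that follow, the rule itself places the OGD/R 3 h-only sites in the 3 OGD/R 3 h libraries and in no other, so that an excess of OGD/R 3 h that includes them restates the choice of sites. The number of sites in OGD/R 3 h beside them is therefore given too, while the totals of control and OGD/R 1.5 h keep the sites found only there.

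Fcgbp, which encodes an IgG Fc binding protein found in intestinal mucus, held 35 OGD/R 3 h-only sites (chr7:28071609-28113991, plus strand), 33 of them in the coding sequence. It held 72, 69 and 66 mRNA sites of any kind in the OGD/R 3 h libraries, 12, 13 and 10 in control and 12, 16 and 13 in OGD/R 1.5 h. Beside the OGD/R 3 h-only sites, the OGD/R 3 h libraries held 37, 34 and 31, still above the other 6 libraries, and control and OGD/R 1.5 h overlapped. Its OGD/R 3 h-only sites had median scores of 206, 142 and 142.

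Actb and Tmsb4x, which encode the cytoskeletal protein beta-actin and thymosin beta-4, a protein that binds actin monomers, held 33 OGD/R 3 h-only sites each. In Actb (chr5:142903238-142906715, minus strand), 15 lay in the start codon region and 13 in the 3′ UTR, and the gene held 82, 74 and 74 sites in OGD/R 3 h, 38, 33 and 30 in the controls and 21, 25 and 25 in OGD/R 1.5 h. Actb was thus listed with many sites in each group, and beside the OGD/R 3 h-only sites the OGD/R 3 h libraries held 49, 41 and 41. In Tmsb4x (chrX:167207257-167209158, minus strand), 27 lay in the start codon region, and the gene held 39, 39 and 38 sites in OGD/R 3 h against 3, 1 and 1 in control and 1, 1 and 4 in OGD/R 1.5 h, of which 6, 6 and 5 in OGD/R 3 h were sites of other kinds. Actb has near-identical copies elsewhere in the genome, between which reads could be split, so its counts are uncertain.

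Hbb-bs, an adult beta-globin gene, held 25 OGD/R 3 h-only sites (chr7:103827833-103827926, minus strand), all in the start codon region. It held 25 sites in each OGD/R 3 h library and 0 in each of the other 6 libraries. Each of the 25 sites had the highest possible score, 1000, in all 3 libraries. Its neighbour Hbb-bt held 6 such sites (chr7:103813889-103813920), also at 1000 in all 3 libraries and with 0 sites in the other 6. Hbb-bs and Hbb-bt are near-identical, so that reads may have been shared between them.

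H1f2, which encodes a linker histone, held 22 OGD/R 3 h-only sites (chr13:23738812-23738944, plus strand), all in the start codon region. It held 23, 24 and 23 sites in OGD/R 3 h, 4, 7 and 6 in the controls and 5, 3 and 5 in OGD/R 1.5 h. With the OGD/R 3 h-only sites set aside, H1f2 held 1, 2 and 1 sites in OGD/R 3 h, fewer than in any control or OGD/R 1.5 h library. The totals of those libraries keep 1 control-only and 1 OGD/R 1.5 h-only site, so the order comes in part from the way of counting. The related H1f3, named after its values had been seen, held 12 OGD/R 3 h-only sites, with 16, 16 and 15 sites in OGD/R 3 h, 7, 7 and 8 in the controls and 1, 2 and 1 in OGD/R 1.5 h. Of those in OGD/R 3 h, 4, 4 and 3 were sites of other kinds.

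Among the other genes with most sites, Slc6a8, the creatine transporter, held 20 OGD/R 3 h-only sites (chrX:73673224-73673829, plus strand), 12 in the 5′ UTR and 8 in the start codon region. It held 28, 25 and 31 sites in OGD/R 3 h, 10, 12 and 13 in the controls and 6, 7 and 5 in OGD/R 1.5 h. Beside the OGD/R 3 h-only sites there were 8, 5 and 11 in OGD/R 3 h, which overlap both other groups, and 7 control-only sites lay in the gene. Calr, which encodes the endoplasmic reticulum chaperone calreticulin, held 15, all in the start codon region, with 21, 21 and 19 sites in OGD/R 3 h, 1, 1 and 1 in the controls and 3, 4 and 5 in OGD/R 1.5 h. Rpl8, a protein of the large ribosomal subunit, held 15, of which 14 lay in the coding sequence, with 18, 19 and 20 sites in OGD/R 3 h, 2, 6 and 3 in the controls and 4, 5 and 4 in OGD/R 1.5 h. Beside the OGD/R 3 h-only sites, the OGD/R 3 h libraries held 6, 6 and 4 sites in Calr, which overlap OGD/R 1.5 h, and 3, 4 and 5 in Rpl8, which overlap both other groups. Atp5e, a subunit of the mitochondrial ATP synthase, held 14 (14, 15 and 17 sites in OGD/R 3 h, 1, 3 and 1 in the controls, 0, 1 and 1 in OGD/R 1.5 h). Gna11, a G protein alpha subunit, also held 14 (33, 35 and 38 sites in OGD/R 3 h, 15, 20 and 12 in the controls, 12, 8 and 11 in OGD/R 1.5 h). Of those in OGD/R 3 h, 0, 1 and 3 in Atp5e and 19, 21 and 24 in Gna11 were sites of other kinds, and each overlaps control.

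**Figure D1:**
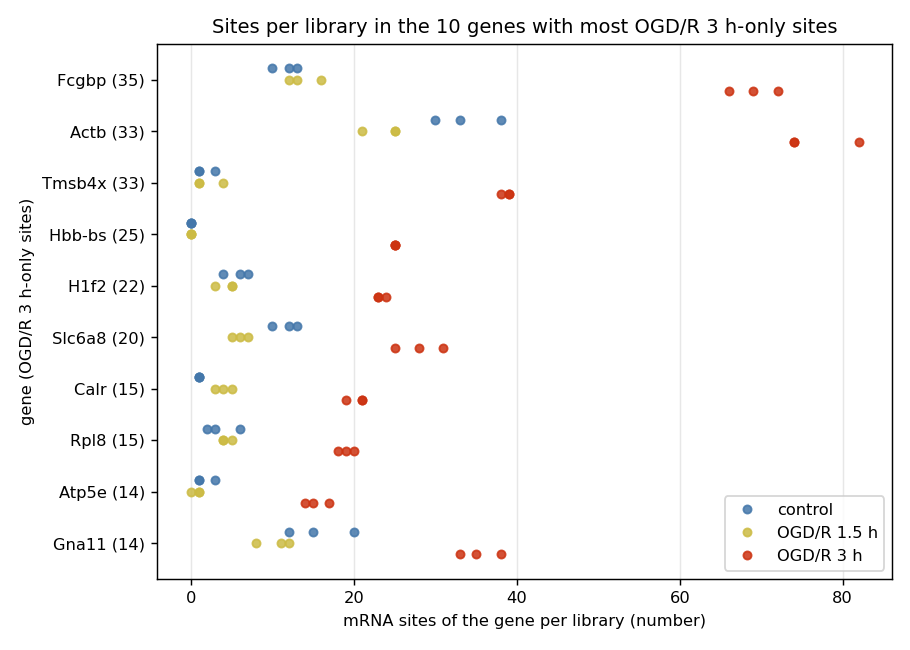
Number of mRNA sites of any kind in each of the 9 libraries (horizontal axis) for the 10 genes with most OGD/R 3 h-only sites, whose number stands in parentheses, with 1 point per library and color by group. All 3 OGD/R 3 h points lie to the right of the other 6 in each gene, which the rule sets in large part because the points include the OGD/R 3 h-only sites, and Actb and Gna11 hold at least 8 sites in every library while Hbb-bs holds 0 in the 6 libraries of the other groups.

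A total of 490 of the 646 genes (75.9%) also carried a site in a control library and 492 (76.2%) in an OGD/R 1.5 h library. In 266 of them there was a control-only site as well, and 126 held sites of all 3 group-only kinds. The 92 genes (14.2%) with no site in any control or OGD/R 1.5 h library held 222 of the OGD/R 3 h-only sites (11.9%). After Hbb-bs, the genes of this kind with most sites were Rhob, a small GTPase, with 12, S100a8 with 9, Sft2d2 with 8 and S100a9 with 7. These 4 genes held exactly those numbers of sites in each OGD/R 3 h library. Anxa1, which encodes the phospholipid-binding protein annexin A1, held 6, Cdc34, a ubiquitin-conjugating enzyme, 5, and Ngp, a protein of neutrophil granules, 5. They were chosen after their values had been seen, except for Anxa1, S100a8, S100a9, Ngp and the genes named before.

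The scores of the OGD/R 3 h-only sites ran from 0 to 1000 in each library, with medians of 14, 14 and 12 (13.3 ± 1.15, mean and SD of 3 libraries). The 705 other mRNA sites called in all 3 OGD/R 3 h libraries had medians of 28, 26 and 23. Of the OGD/R 3 h-only sites, 393 (21.2%) scored below 10 in all 3 libraries, 668 (36.0%) scored at least 10 in all 3 and 213 scored at least 100 in all 3. Over these sites, Spearman's rank correlation of the scores was 0.673, 0.672 and 0.662 between the pairs of libraries, and the points share genes, coverage and sequence. The highest of the 3 scores of a site was 3.61 times its lowest at the median, after 1 was added to each.

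**Figure D2:**
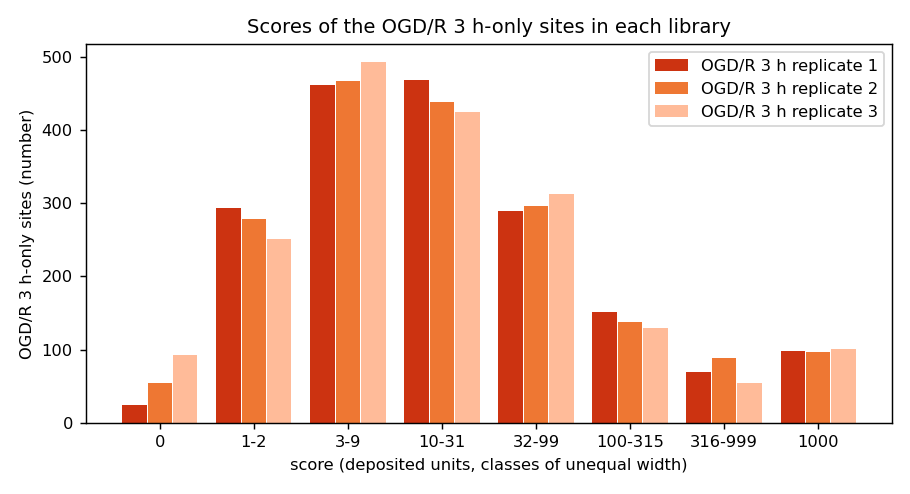
Number of OGD/R 3 h-only sites (vertical axis) by score class in deposited units (horizontal axis, classes of unequal width), with bars for the 3 OGD/R 3 h replicates. The median scores are 14, 14 and 12, and a separate group of 98, 97 and 101 sites stands at the upper limit of 1000.

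At the upper limit, 87 sites in 16 genes had a score of 1000 in all 3 libraries. Hbb-bs held 25 of them, S100a8 9, H1f3 8, Anxa1, Hbb-bt and S100a9 6 each, Ngp and Tmem38b 5 each, Apoa1 4, and Dusp1, a phosphatase that acts on MAP kinases and was named after its values had been seen, and H1f2 3 each. Most of these sites thus belonged to globin genes, genes of neutrophils and linker histones. The 5 sites of Tmem38b lie in its 3′ UTR where the annotation also has an rRNA gene, and the site of Rabggtb lies in the snoRNA gene Snord45c. Reads of the mRNA and of the noncoding RNA cannot be told apart at these 6 sites. All in all, 7 of the 1858 sites lay in a small noncoding RNA gene, the remaining site being in Vmp1 within the precursor of Mir21a.

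The 10 sites at the head of the scores, with at most 2 per gene and ties taken in order of position, lay in S100a8, S100a9, Rabggtb, Tmem38b, Hbb-bt and Hbb-bs. In S100a8 these were the cytosines at chr3:90669531 and 90669535 in exon 2 of 3, which are 11 and 7 nt upstream of the start codon, and in S100a9 those at chr3:90695671 and 90695672 in exon 1 of 3. In Hbb-bt they were at chr7:103813889 and 103813893 in exon 1 of 3, and in Hbb-bs at chr7:103827833, also in exon 1 of 3. Each scored 1000 in all 3 OGD/R 3 h libraries.

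At the border of the rule, the sites at chr2:20880780 in Arhgap21, chr7:100493422 in Ucp2 and chr12:98747109 in Zc3h14 were included with a score of 0 in all 3 libraries. Outside it, 213 sites were called in all 3 OGD/R 3 h libraries and in 1 other library, which was a control library for 108 and an OGD/R 1.5 h library for 105. In Tmsb4x, the site at chrX:167209146 scored 1000 in all 3 OGD/R 3 h libraries and was left out for a score of 11 in OGD/R 1.5 h replicate 3. In Lars2, the sites at chr9:123461945 and chr9:123461956 scored 1000 in the OGD/R 3 h libraries and also 1000 in control replicate 1 or 2. A further 836 sites were called in 2 of the OGD/R 3 h libraries and in no other group, among them 1 in Psap (224, 224 and no call), 1 in Fth1 (179, no call and 154) and 1 in Fcgbp (no call, 162 and 148).

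The label of the cells was set beside lists of marker genes. These lists were chosen with earlier results of these data known, so their counts are a description and no independent check. Of 16 genes of neurons, such as Tubb3, Map2, Snap25 and Rbfox3, 0 carried an mRNA site in any of the 9 libraries, and of 10 genes of glia 1 did, Aldh1l1, with no OGD/R 3 h-only site. Of 30 genes of the intestinal epithelium, 29 carried a site in some library and 22 (75.9% of the 29, where 24.9% of all genes with a site did) an OGD/R 3 h-only site, 139 in all. Among the same 29 genes, 17 held a control-only site and 12 an OGD/R 1.5 h-only site, where 23.1% and 16.9% of all genes with a site did. A called site needs reads, so transcripts of intestinal genes were read in each group, while the neuron markers gave no site that bears out the label. A gene without a site may still have been expressed. The sites do not give the share of any cell type, since expression was not analysed here. In such bulk RNA, fewer cells of a type and less RNA per cell cannot be told apart.

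The intestinal genes held 334, 306 and 330 sites in the OGD/R 3 h libraries, 159, 169 and 154 in control and 98, 92 and 105 in OGD/R 1.5 h, so that sites of these genes were present in each group. Beside the OGD/R 3 h-only sites there were 195, 167 and 191 in OGD/R 3 h, which overlap control and lie above OGD/R 1.5 h. Fcgbp held 35 of the 139 OGD/R 3 h-only sites, followed by Pigr, the receptor that carries antibodies across epithelia, with 11 and the apolipoprotein gene Apoa1 with 9. Pigr held 26, 27 and 29 sites in OGD/R 3 h, 7, 13 and 9 in the controls and 8, 9 and 7 in OGD/R 1.5 h, and 15, 16 and 18 of those in OGD/R 3 h were sites of other kinds. Apoa1 held 17, 18 and 21 in OGD/R 3 h and 22, 17 and 17 in control, which overlap, and 4, 5 and 5 in OGD/R 1.5 h. It also held 7 control-only sites.

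Of 10 annotated genes of red blood cells, 3 carried a site. Hbb-bs and Hbb-bt, 2 of the 3 (66.7%, against 24.9% of all genes with a site), held all 31 OGD/R 3 h-only sites of the list. The remaining gene, Car2, went the other way, with a control-only site, 1 site in each control library and 0 in every other library. Thus 1 of the 3 genes held a control-only site and 0 an OGD/R 1.5 h-only site, against 23.1% and 16.9% of all genes. Hba-a1 and Hba-a2, which are alpha-globin genes, and Alas2 and Slc4a1 carried no site in any library. Of 18 genes of neutrophils and phagocytes, 4 carried a site, and all 4 held OGD/R 3 h-only sites, 30 in all, where 24.9% of all genes with a site held any. The list held 32, 32 and 32 sites in OGD/R 3 h, 2, 1 and 1 in the controls and 0, 0 and 0 in OGD/R 1.5 h, and beside the OGD/R 3 h-only sites 2, 2 and 2 were left in OGD/R 3 h. Cyba, a subunit of the phagocyte NADPH oxidase, held 9 (chr8:122432868-122432899, minus strand), and S100a8 and S100a9, calcium-binding proteins abundant in neutrophils, held 9 and 7, while Camp, Ltf, Mpo, Elane and Lyz2 carried no site in any library.

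Of 12 genes of lymphocytes and antigen presentation, 8 carried a site and 7 of them (87.5%) held 31 OGD/R 3 h-only sites, against the 24.9% of all genes with a site. The list held 59, 54 and 51 sites in OGD/R 3 h, 20, 26 and 21 in the controls and 9, 7 and 10 in OGD/R 1.5 h. Without the OGD/R 3 h-only sites, 28, 23 and 20 were left in OGD/R 3 h, which overlap control. The class I genes H2-D1 and H2-K1, which present peptides to T cells and are alike in sequence, held 10 and 8, and the class II gene H2-Ab1 held 5. A control-only site was held by 4 of the 8 genes and an OGD/R 1.5 h-only site by 1. Of 15 genes of smooth muscle and fibroblasts, 9 carried a site. Of these, 2 (22.2%, near the 24.9% of all genes), Tagln and Acta2, held 3 OGD/R 3 h-only sites. That list held 10, 11 and 15 sites in OGD/R 3 h and 19, 17 and 13 in control, which overlap, and 12, 11 and 9 in OGD/R 1.5 h. The part that differences in cell types play in the OGD/R 3 h-only sites was not tested.

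Among genes for actin and actin-binding proteins, 14 of 21 with a site (66.7%) held 96 OGD/R 3 h-only sites, against 24.9% of all genes with a site that held any. Besides Actb and Tmsb4x, Actn4, an actin crosslinker, and Flna, filamin A, held 5 each, with 11, 10 and 8 sites of Actn4 in OGD/R 3 h against 8, 7 and 6 in control and 2, 5 and 7 in OGD/R 1.5 h. Flna held 6, 5 and 7 sites in OGD/R 3 h, 1, 1 and 0 in the controls and 0, 0 and 0 in OGD/R 1.5 h. Beside the OGD/R 3 h-only sites, OGD/R 3 h held 6, 5 and 3 in Actn4 and 1, 0 and 2 in Flna, and the list as a whole 146, 117 and 125, which overlap its 118, 124 and 113 in control. Control-only sites were held by 10 of the 21 genes and OGD/R 1.5 h-only sites by 8, against 23.1% and 16.9% of all genes with a site.

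In protein synthesis, 10 of 23 translation factor genes with a site (43.5%) held 33 OGD/R 3 h-only sites, against 24.9% of all genes with a site. Eef1a1, the elongation factor that brings tRNA to the ribosome, held 8 and was listed with 31, 21 and 23 sites in OGD/R 3 h, 1, 0 and 1 in the controls and 6, 5 and 6 in OGD/R 1.5 h. Of those in OGD/R 3 h, 23, 13 and 15 were sites of other kinds, above both other groups. The initiation factor genes Eif4g1 and Eif4g2 held 5 each, as did Pabpc1, which binds the poly(A) tail. Of 28 genes for cytosolic ribosomal proteins with a site, 8 (28.6%, near the 24.9% of all genes) held 24, of which Rpl8 held 15 and Rpl31 and Rps14 held 2 each. Eef1a1 and ribosomal protein genes have many near-identical copies, so their counts are uncertain. Among the 23 translation factor genes, 5 held a control-only site and 7 an OGD/R 1.5 h-only site, against 23.1% and 16.9% of all genes.

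Of 18 chaperone genes with a site, 7 (38.9%, against 24.9% of all genes) held 33 OGD/R 3 h-only sites. After Calr, the lectin chaperone Canx held 7 and the protein disulfide isomerase P4hb held 5. Canx had 29, 34 and 23 sites in OGD/R 3 h, 22, 21 and 21 in the controls and 18, 20 and 21 in OGD/R 1.5 h. Canx held 22, 27 and 16 sites of other kinds in OGD/R 3 h, which overlap both other groups. A control-only site was held by 5 of the 18 genes and an OGD/R 1.5 h-only site by 5, against 23.1% and 16.9% of all genes.

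In the stress response list, 10 of 17 genes with a site (58.8%, against 24.9% of all genes) held 31 OGD/R 3 h-only sites. Txn1, thioredoxin, held 7, the glutathione peroxidase gene Gpx1 5 and Jun, a component of the transcription factor AP-1, 4. Txn1 had 10, 9 and 10 sites in OGD/R 3 h, 4, 6 and 5 in the controls and 0, 0 and 0 in OGD/R 1.5 h, and 3, 2 and 3 of those in OGD/R 3 h were sites of other kinds. Control-only sites were held by 6 of the 17 genes and OGD/R 1.5 h-only sites by 3, against 23.1% and 16.9% of all genes. In the apoptosis list, Bcl2l1, which encodes the death inhibitor Bcl-xL, held 3 OGD/R 3 h-only sites and was listed with 4, 4 and 4 sites in OGD/R 3 h, 0, 1 and 1 in the controls and 0, 0 and 0 in OGD/R 1.5 h. Of 7 glycolysis genes with a site, 3 (42.9%, against 24.9% of all genes), Gpi1, Ldha and Tpi1, held 1 each. A control-only site was held by 0 of the 7 genes and an OGD/R 1.5 h-only site by 2.

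Of 3 genes for m5C writers, erasers and readers with a site, 2 (66.7%, against 24.9% of all genes) held OGD/R 3 h-only sites. These were Alyref and Ybx1 with 2 each, and Ybx1 also held 2 control-only sites. A control-only site was held by 1 of the 3 genes and an OGD/R 1.5 h-only site by 1. Alyref held 3, 2 and 2 sites in OGD/R 3 h and 0 in the other 6 libraries, and Ybx1 held 3, 3 and 7 in OGD/R 3 h, 4, 3 and 3 in the controls and 4, 2 and 2 in OGD/R 1.5 h. Ybx1 thus had as many sites in control as in OGD/R 3 h replicates 1 and 2, and Nop2 and Nsun2 carried no site in any library.

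Of 52 genes of the respiratory chain and ATP synthase with a site, 19 (36.5%, against 24.9% of all genes) held 59 OGD/R 3 h-only sites. After Atp5e came the ATP synthase gene Atp5b with 5 and Atp5d and Ndufb11, a subunit of complex I, with 4 each. Atp5b had 11, 12 and 12 sites in OGD/R 3 h, 6, 8 and 8 in the controls and 5, 4 and 5 in OGD/R 1.5 h. The list as a whole held 131, 129 and 137 sites in OGD/R 3 h, 48, 50 and 50 in the controls and 76, 91 and 85 in OGD/R 1.5 h. Without the OGD/R 3 h-only sites, 72, 70 and 78 were left in OGD/R 3 h, above control and overlapping OGD/R 1.5 h. Among the 52 genes, 7 held a control-only site and 16 an OGD/R 1.5 h-only site, against 23.1% and 16.9% of all genes.

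**Figure D3:**
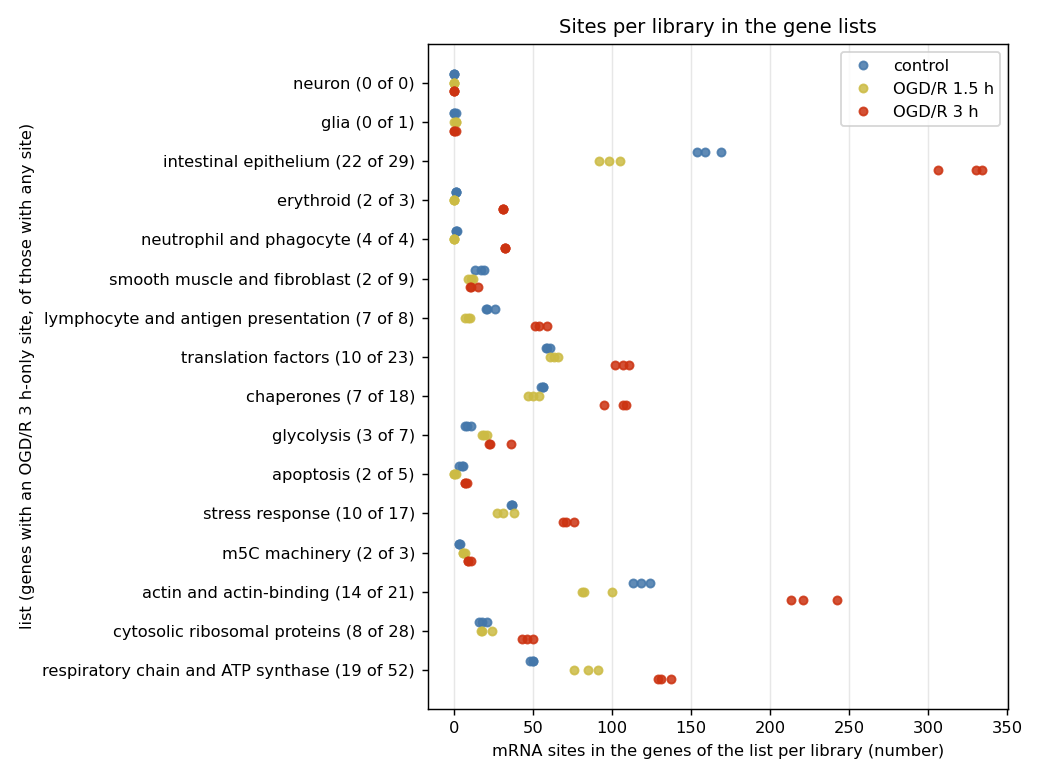
Number of mRNA sites in the genes of each list (vertical axis) in each of the 9 libraries (horizontal axis), with 1 point per library and color by group, and the points of OGD/R 3 h include the OGD/R 3 h-only sites that the rule places there. The neuron list stands at 0 in all 9 libraries, the red blood cell (erythroid) list at 31 in each OGD/R 3 h library and at most 1 elsewhere, and the smooth muscle list overlaps between OGD/R 3 h and control.

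Among 12 genes for which the study listed primers, and which are no independent evidence since its candidates were picked on these samples, 7 (58.3%, against 24.9% of all genes) held 50 OGD/R 3 h-only sites. These were Hbb-bs with 25, Cyba with 9, Anxa1 with 6, Ngp with 5, Prr13 with 3 and Acta2 and Arhgap12 with 1 each. Dpp4, Glrx5, Heph, Myo7a and Ywhah held 0. The text of the study names Prr15 among its candidates where the primers name Prr13, and Prr15 held 4 OGD/R 3 h-only sites. By m5C immunoprecipitation and qRT-PCR, the study reported Anxa1, Hbb-bs, Prr15, Cyba and Arhgap12 as hypermethylated after OGD/R. It reported Myo7a, Dpp4, Ywhah, Acta2 and Heph as hypomethylated, so the 58.3% pools genes of both directions. Cyba held 11, 11 and 11 sites in OGD/R 3 h, 2, 1 and 1 in the controls and 0 in the OGD/R 1.5 h libraries, and Anxa1 6, 6 and 6 in OGD/R 3 h and 0 in the other 6. The study named 10 genes as hubs of a protein network, likewise chosen on these samples. Of these, 8 (80.0%, against 24.9% of all genes with a site) held 29 OGD/R 3 h-only sites. Rpl8 held 15, Rab1b 5, Rack1, Rpl31 and Rps14 2 each and Ppp2ca, Rps2 and Rps9 1 each, while Hspa8 and Srsf1 held 0. A control-only site was held by 3 of the 10 genes and an OGD/R 1.5 h-only site by 4, against 23.1% and 16.9% of all genes. Rack1 held 3, 3 and 9 sites in OGD/R 3 h, 7, 6 and 5 in the controls and 8, 7 and 7 in OGD/R 1.5 h.

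Histone genes, mitochondrially encoded genes and alpha-defensins were grouped after their values had been seen, so that their counts are a description only, beside the 24.9% of all genes with a site. Of 103 histone genes, 20 carried a site and 11 of these held 72 OGD/R 3 h-only sites, with H2bc18, H1f0 and H1f5 at 9, 7 and 7 after H1f2 and H1f3, and the group had 88, 91 and 91 sites in OGD/R 3 h, 38, 33 and 32 in the controls and 23, 16 and 18 in OGD/R 1.5 h. Without the OGD/R 3 h-only sites, 16, 19 and 19 were left in OGD/R 3 h, below control. The control totals keep the control-only sites, so this order comes in part from the way of counting. Of 9 mitochondrial genes with a site, 4 held 17 OGD/R 3 h-only sites, 9 of them in ND2 (chrM:3920-3943) and 6 in COX1, subunits of complexes I and IV, and 1 each in CYTB and ND4. ND2 had 11, 9 and 9 sites in OGD/R 3 h, 0, 0 and 0 in the controls and 0, 0 and 1 in OGD/R 1.5 h. Of the alpha-defensins, antimicrobial peptides of Paneth cells in the gut that are alike in sequence, 9 genes carried a site and 7 of these held 13.

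The sites were placed along the spliced transcripts, and a codon region spans 100 nt upstream and 100 nt downstream of the start or stop codon. The start codon region held 1050 of the OGD/R 3 h-only sites (56.5%, 95% Wilson interval 54.2 to 58.8), the coding sequence outside the codon regions 400 (21.5%, 19.7 to 23.5), the 5′ UTR 263 (14.2%, 12.6 to 15.8), the 3′ UTR 77 (4.14%, 3.33 to 5.15) and the stop codon region 68 (3.66%, 2.90 to 4.61). These intervals cover counting error only, and neighbouring sites share reads. The start codon region held 51.0% (47.9 to 54.0) of control-only and 48.0% (44.1 to 51.9) of OGD/R 1.5 h-only sites, but since sites are not replicates of a condition these intervals do not compare the groups. With 1 site per gene, the start codon share of the OGD/R 3 h-only sites was 52.0%, and with OGD/R 3 h replicate 3 left out it was 48.4%. Of the 107 mRNA sites called in all 9 libraries, 18.7% (12.4 to 27.1) lay there and 48.6% (39.3 to 58.0) in the 3′ UTR. Among these 107 sites, 19 (17.8%) lay in a small noncoding RNA gene on the same strand.

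Relative to the cytosines present in the transcripts with OGD/R 3 h-only sites, there were 27.3 sites per 1000 cytosines around the start codon, 9.02 in the 5′ UTR, 2.06 in the stop codon region, 1.61 in the coding sequence and 0.475 in the 3′ UTR. Per window of 100 nt, the density was 29.3 in the window before the start codon, 25.8 in the window from the start codon on, 11.6 in the next and 1.95 in the one after that. It thus dropped with distance downstream of the start. The median OGD/R 3 h-only site lay 194 nt from the 5′ end of its transcript, against 231 nt for control-only, 250 nt for OGD/R 1.5 h-only and 1552 nt for sites in all 9 libraries. The first exon held 69.6% of the OGD/R 3 h-only, 68.4% of control-only and 58.2% of OGD/R 1.5 h-only sites. Within the coding sequence, 31.8%, 31.2% and 37.0% fell on codon positions 1, 2 and 3, near the 30.8%, 30.7% and 38.5% of all cytosines of those coding sequences.

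**Figure D4:**
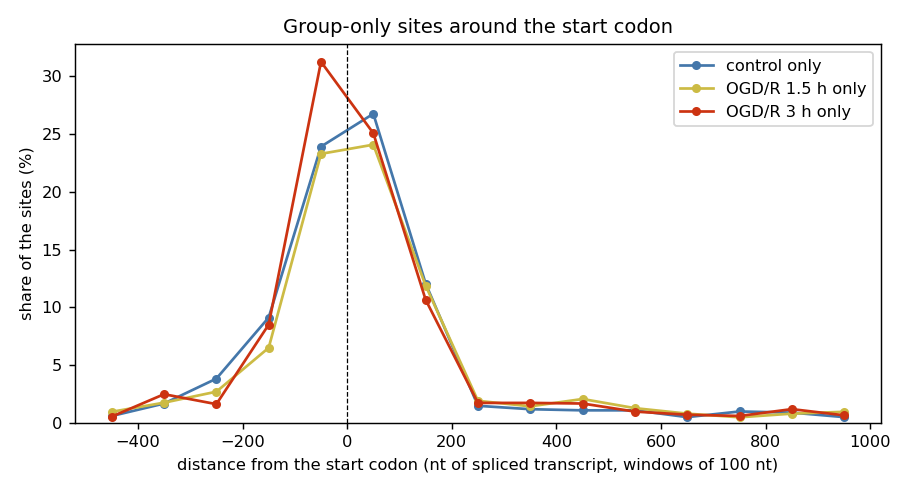
Share of the group-only sites in percent (vertical axis) in windows of 100 nt of spliced transcript by distance from the start codon (horizontal axis, dashed line at the start codon), with 1 line for each set of group-only sites. All 3 lines peak in the windows next to the start codon, and in the window before it lie 31.3% of OGD/R 3 h-only, 23.9% of control-only and 23.3% of OGD/R 1.5 h-only sites.

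How many of the 3 libraries of a group held a site differed between regions of the transcript. Among mRNA sites seen in no other group, OGD/R 3 h had 524 start codon sites in 1 library, 52 in 2 libraries and the 1050 in all 3. In the 5′ UTR there were 161, 13 and 263, whereas in the coding sequence there were 2111, 570 and 400. Sites called in exactly 2 libraries thus made up 3.20% of the start codon sites and 2.97% of the 5′ UTR sites but 18.5% of the coding sequence sites. In control, 14.0% of the start codon sites and 21.1% of the coding sequence sites were called in exactly 2 libraries, and in OGD/R 1.5 h 10.7% and 16.4%. The first exon held 19.9% of the OGD/R 3 h sites called in 1 library, 6.94% of those in 2 and 69.6% of those in all 3. With calls required in at least 2 OGD/R 3 h libraries in place of 3, the start codon share was 40.9% (1102 of 2694). The cause of the pattern was not tested.

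**Figure D5:**
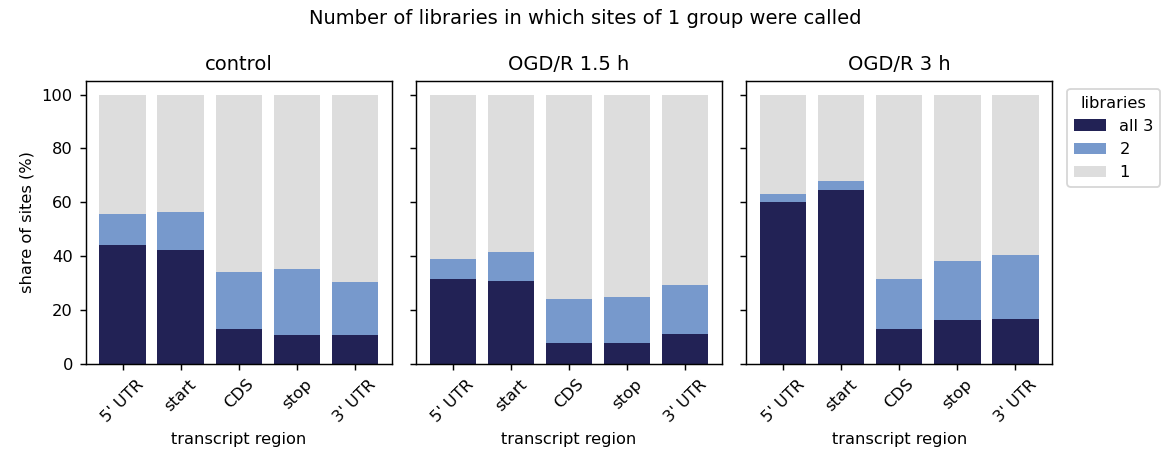
Share in percent (vertical axis) of the mRNA sites seen in 1 group only that were called in 1, 2 or all 3 libraries of that group, by transcript region (horizontal axis), with a panel for each group. In OGD/R 3 h, 64.6% of start codon sites and 60.2% of 5′ UTR sites were called in all 3 libraries and 13.0% of coding sequence sites.

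By sequence context, where H is A, C or T, 24.5% (22.6 to 26.6) of the OGD/R 3 h-only sites were CG, 35.4% (33.2 to 37.6) CHG and 40.1% (37.9 to 42.3) CHH. Control-only sites were 33.7% CG, 37.5% CHG and 28.7% CHH (26.03 to 31.6), and OGD/R 1.5 h-only sites 27.7%, 36.3% and 36.0% (32.3 to 39.8). These intervals, too, are over sites and not over samples, and with 1 site per gene the CHH share of the OGD/R 3 h-only sites was 37.5%. Here and below, the bases around a site were read from the genome, and those around all cytosines from the spliced transcripts. Near an exon end, the bases around a site can thus include intron sequence. All cytosines of the same transcripts were 11.7% CG, 25.2% CHG and 63.1% CHH. The OGD/R 3 h-only sites thus lay between the control-only sites and the cytosines at large in CG and CHH share.

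Next to an OGD/R 3 h-only site there was another cytosine on at least 1 side in 58.2% of cases (56.0 to 60.5), against 47.3% of control-only, 50.7% of OGD/R 1.5 h-only sites and 49.9% of all cytosines of the transcripts. In the 10 nt on either side, C made up 31.4% of the bases and G 34.3%, where control-only sites had 24.3% C and 40.7% G and OGD/R 1.5 h-only sites 25.9% C and 37.9% G. The sum of G and C differed less, with 65.7%, 65.1% and 63.8%, against 52.3% around all cytosines. The letters NGGG, the guanine-rich stretch known to follow sites of NSUN2, came right after 3.28% (2.56 to 4.19) of OGD/R 3 h-only, 3.43% of control-only and 4.28% of OGD/R 1.5 h-only sites and 2.06% of all cytosines, read on the transcript strand. The motif of NSUN6, CTCCA, was present at 5 of the OGD/R 3 h-only sites (0.269%), 3 control-only sites (0.294%) and 6 OGD/R 1.5 h-only sites (0.951%), against 0.710% of all cytosines. Such a match is a description of the letters and not of an enzyme's action.

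The OGD/R 3 h-only sites stood close together. Another such site lay within 10 nt of 823 of them (44.3%, 42.1 to 46.6), against 29.5% (26.8 to 32.4) of control-only and 14.1% (11.6 to 17.04) of OGD/R 1.5 h-only sites, each counted within its own set. The sets differ in size, and a larger set has more neighbours within a gene, so these shares are not on 1 scale. Directly adjacent were 193 (10.4%), 4.41% and 3.17%. There were 32 runs of at least 5 OGD/R 3 h-only sites with no gap over 10 nt, against 0 among control-only and OGD/R 1.5 h-only sites, where the longest runs had 4 and 3 sites. Close spacing was also found among the 107 sites in all 9 libraries, of which 48.6% had another within 10 nt. There were 3 runs of at least 5 sites there and a longest run of 23. However, 19 of these 107 sites (17.8%) lay in a small noncoding RNA gene, against 0.377% of the OGD/R 3 h-only sites. Reads of the mRNA and of the noncoding RNA cannot be told apart at such sites.

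The longest run lay in Hbb-bs (chr7:103827833-103827899), where all 21 cytosines of 67 nt were OGD/R 3 h-only sites. Runs in Rhob (11 of 11), Actb (10 of 10) and S100a8 (9 of 9) also took up every cytosine, while the run in Tmsb4x took up 19 of 21, that in Calr 9 of 10, in H1f2 16 of 22 and in Rpl8 10 of 13. From these files, methylation of each cytosine and a stretch left unconverted by bisulfite cannot be told apart.

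A site called in any control library lay within 50 nt of transcript from 884 of the OGD/R 3 h-only sites (47.6%, 45.3 to 49.9), within 10 nt of 22.2% and in the same gene for 80.0%. Sites called in all 3 control libraries lay within 50 nt of 30.9% and within 10 nt of 11.8%. The shares that follow again count sites called in any library of a group. An OGD/R 1.5 h site lay within 50 nt of 51.6%, and either kind within 50 nt of 65.98%. In the other direction, an OGD/R 3 h site lay within 50 nt of 58.0% of control-only sites. For many OGD/R 3 h-only sites, the same short stretch was thus read and called at another cytosine in the other groups, though this gives no coverage at the site itself.

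The 616 sites (33.2%) with both a control and an OGD/R 1.5 h site within 50 nt had median scores of 11, 11 and 11, and 5.36% of them scored at least 100 in all 3 OGD/R 3 h libraries. The 632 sites with neither had medians of 14, 16 and 14, and 18.99% scored at least 100 in all 3. The CHH share was 40.9% and 41.1%, and the CG share was 26.8% and 19.5%. Sites near both were found in Gna11 (12 of 14), Actb and Tmsb4x (11 of 33 each), Gnas (10 of 14), Dgat1 (9 of 9) and Ywhaz (9 of 10), the last 3 genes being named after their values had been seen.

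Chromosome X held 71 of the OGD/R 3 h-only sites (3.82%, against 1.54% of all mRNA sites), of which Tmsb4x and Slc6a8 held 53. The mitochondrial chromosome held 17, against 1 control-only and 1 OGD/R 1.5 h-only site. Lower-case repeat sequence of the genome held 4.36%, against 4.71% of control-only and 6.18% of OGD/R 1.5 h-only sites.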

How the data were processed

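Bisulfite libraries were analysed, and the 9 mock libraries were not analysed here. Per the study's methods, the authors used Cutadapt for trimming, meRanGh for alignment to mm10 and meRanCall for the site calls. They deposited 1 list of sites per library, and whether each library was called on its own is not given in the sources used here. The submitters' processing notes also name CASAVA 1.8 and STAR, and how mock libraries entered the calls is not given in the sources used here. The deposited score of a site is 10 times the meRanCall score as a whole number with a limit of 1000, with no normalization for depth. No depth, level or count could be taken from it.

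Sites were placed on the RefSeq annotation of GRCm38 (mm10; 21013 genes) with Python 3.11.15, numpy 2.4.6 and pysam 0.24.0, and Wilson intervals came from statsmodels 0.14.6. Indexing used samtools 1.23.1, and plots were made in matplotlib 3.10.9. Positions count from 1. Counting was tested on simulated data. The members and gene lists were chosen with earlier results of these data known, and no test was run. Of the listed genes, only Ahsp was not found in the annotation.

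The genes named are the 10 with most sites, the 10 sites of the highest lowest score (at most 2 per gene), the 3 genes with most sites in each list, the study's candidate and hub genes, and sites at the border of the rule. Further genes are marked as chosen after their values were seen. 5 sites lay in exons of more than 1 gene. Alternatives changed the calls required, the absence required, the score minimum, distances, the codon window and the weight of genes. Some genes of the lists are not reported here.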

Additional observations from a re-analysis of the deposited data

How the results depend on the processing

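No value was tested, so what follows gives the size of each value under another choice. With calls in at least 2 OGD/R 3 h libraries, the CG share was 22.2%, the coding sequence share 36.0%, the start codon share 40.9%, the share near a control site 45.3% and the share with a neighbour 40.9%. With absence from control only, the start codon share was 54.2%. Sites with no other site within 10 nt numbered 720 (CHH 37.5%, CG 22.4%, NGGG 4.31%, coding sequence 25%, start codon 52.8%, median score 12.2). Sites with a score of at least 10 numbered 668 in 266 genes (CG 18.4%, coding sequence 27.7%, start codon 43.9%, near a control site 44.2%, with a neighbour 40.7%, median score 82.3). Without the 5 genes with most sites, 41.6% had a neighbour and the median score was 11.3. With 1 site per gene there were 646 sites (CHH 37.5%, coding sequence 26.2%, start codon 52.0%, median score 15). With 50 nt around the codon, the coding sequence share was 30.4% and the start codon share 36.4%. A control site lay within 10 nt of 22.2% and within 100 nt of 57.7%, and 30.8% had a neighbour within 5 nt.

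The next alternatives were chosen after seeing the data. Without the genes of the intestinal, red blood cell, neutrophil and lymphocyte lists, the median score was 10.7. Among sites with a control and an OGD/R 1.5 h site within 50 nt there were 616 in 284 genes (CG 26.8%, coding sequence 26.1%, start codon 49.8%, with a neighbour 32.3%, median score 11). Leaving out repeats and small noncoding RNA moved no value by more than its interval or spread.

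With each of the 9 libraries left out in turn, there were 1888 to 2203 sites in 650.0 to 732 genes, with a CHH share of 40.0% to 41.2%, CG 23.2% to 24.6%, NGGG 3.12% to 3.37%, coding sequence 21.5% to 29.1%, start codon 48.4% to 56.3%, near a control site 45.4% to 48.2%, with a neighbour 41.5% to 44.8% and a median score of 13.0 to 14.0. The lowest start codon share came without OGD/R 3 h replicate 3. No paired analysis was possible because the results come from no test. The unknown depth limits every statement on absence from a group.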
